A study of Mus musculus with 14 samples.

Results

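The miR-29 family of the mouse is made from 4 hairpin genes. It was followed here through its 7 lines in a table of counts per mature miRNA, which holds 1250 lines in all. The lines were taken by name: 3 guides (mmu-miR-29a-3p, mmu-miR-29b-3p and mmu-miR-29c-3p) and 4 passengers (mmu-miR-29a-5p, mmu-miR-29b-1-5p, mmu-miR-29b-2-5p and mmu-miR-29c-5p), written without the species prefix from here on. The 14 small RNA libraries were from macrophages of bone marrow, with excised bone as the labelled tissue. They comprised 4 libraries of exosomes from IL4-stimulated macrophages, 4 of exosomes from control (wild type) macrophages, 3 of lysates of IL4-stimulated macrophages and 3 of lysates of control macrophages. Titles name the groups IL4 and WT. The labels give no strain, age, sex, IL4 dose or length of stimulation, and no label ties a replicate to its own animal or culture. The p-values therefore rest on library-to-library spread alone, and that spread may be technical. Each date in the titles has 1 IL4 and 1 control library (4 exosome dates, 3 lysate dates), and no date has both an exosome and a lysate library, so date and compartment cannot be told apart.

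A miRNA hairpin is cut into a duplex, of which the strand kept by Argonaute is the guide and the strand that is mostly discarded is the passenger. In the miR-29 family the guide is the 3p arm. The guides are known as repressors of collagens, elastin and other matrix proteins, of the DNA methyltransferases Dnmt3a and Dnmt3b and of the anti-apoptotic protein Mcl1, and in immune cells they act on interferon-gamma and on T-bet. Exosomes are small vesicles that cells release, and their miRNAs can differ in proportion from those of the cells.

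The mature sequences are shown because the guides share a seed while the passengers do not, and because near-identical guides limit what counting can tell apart. They are from RefSeq (GRCm38.p6), 5′ to 3′, with the seed (bases 2 to 8) in capitals.
miR-29a-3p: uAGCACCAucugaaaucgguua
miR-29b-3p: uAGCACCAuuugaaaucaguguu
miR-29c-3p: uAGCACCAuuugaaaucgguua
miR-29a-5p: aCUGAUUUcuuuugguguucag
miR-29b-1-5p: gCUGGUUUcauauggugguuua
miR-29b-2-5p: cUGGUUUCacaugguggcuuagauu
miR-29c-5p: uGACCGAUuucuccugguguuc

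The guide seed AGCACCA was found in 3 of the 1679 mature miRNAs of the reference, and these were the 3 guides. Of the passenger seeds, that of miR-29b-2-5p was shared with miR-6338, and each of the other 3 was found in its own miRNA only. Counted from 1 at the 5′ end, miR-29a-3p and miR-29c-3p differ by C10U alone and are identical at 21 of 22 positions. The changes from miR-29b-3p to miR-29c-3p are A18G, G21U and U22A, with 19 of 22 positions identical. The split of reads between miR-29a-3p and miR-29c-3p is therefore uncertain where the authors' counting allowed mismatches, which the sources used here do not state. The motif GGAG, reported in vesicle-enriched miRNAs, was in 0 of the 7 mature sequences and in 238 of 1679 (14.2%) of the reference. The motif AGUGUU, reported as the 3′ nuclear element of miR-29b, was in miR-29b-3p and in 12 of 1679 (0.715%) of the reference. Both motifs were searched in the mature strand as written.

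The hairpins are shown because their arms are what the following counts compare, with the mature 5p arm and then the mature 3p arm in capitals (RefSeq, GRCm38.p6).
Mir29a: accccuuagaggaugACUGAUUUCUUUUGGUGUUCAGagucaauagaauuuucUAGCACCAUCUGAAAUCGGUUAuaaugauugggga
Mir29b-1: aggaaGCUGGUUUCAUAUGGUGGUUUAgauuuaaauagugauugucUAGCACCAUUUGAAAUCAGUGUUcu
Mir29b-2: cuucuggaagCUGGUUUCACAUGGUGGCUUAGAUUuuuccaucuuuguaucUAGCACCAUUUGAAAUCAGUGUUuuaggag
Mir29c: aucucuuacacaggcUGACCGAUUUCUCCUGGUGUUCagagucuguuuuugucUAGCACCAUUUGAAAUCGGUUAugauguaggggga

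Mir29a (chr6:31062660-31062747) and Mir29b-1 (chr6:31063023-31063093) lie on the minus strand with 275 bases between them, and Mir29b-2 (chr1:195037040-195037120) and Mir29c (chr1:195037547-195037634) on the plus strand with 426 bases between them. In the annotation, Mir29a overlaps no other gene, and its nearest coding genes are Klf14, 103581 bases to the left, and Mkln1, 335987 bases to the right. Mir29b-1 lies in an exon of the lincRNA Gm27019 on the same strand. Mir29b-2 and Mir29c lie in exons of the transcript A330023F24Rik on the same strand and overlap annotated exons of Cd46, a complement regulator, on the opposite strand. Mir29b-1 and Mir29b-2 yield the same 3p sequence, so that miR-29b-3p is 1 line for both genes, while their passengers are separate lines.

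Total counts ran from 28417 to 411671 in the 8 exosome libraries and from 3941480 to 6792079 in the 6 lysates, so that 1 read is worth 35.2 CPM (the count scaled to the library's total) in the smallest library. The macrophage check rested on 9 myeloid miRNAs, among them miR-223 and miR-142a, none of them at 0. They made up 21.9% to 32.3% of reads in IL4 exosomes, 22.2% to 29.4% in control exosomes, 34.8% to 45.4% in IL4 lysates and 28.8% to 35.04% in control lysates. Most of these reads were miR-21a-5p, which is also on the fibrosis list below. Over the 14 libraries it had 11148000 counts, against 544464 for miR-223-3p and 167196 for miR-142a-3p. The summed shares therefore say little about miR-223 and miR-142a. Erythroid and endothelial markers were higher in exosomes, and so were most lines of the stromal, muscle, lymphocyte and liver lists. In controls 4 of 6 stromal, 3 of 3 muscle, 1 of 1 lymphocyte and 1 of 1 liver lines were called higher. In IL4 samples 5 of 6 stromal and 2 of 3 muscle lines were, with the same counts for the other 2 lists. Of all lines tested, 29.3% were called higher and 21.6% lower in controls, and 30.2% and 18.9% in IL4 samples. The stromal list had 1 line called lower in control exosomes, miR-140-3p (-0.89, edgeR adjusted p = 0.0118, named after its value was seen). Of the epithelial list, 2 of 5 lines were called higher and 0 lower. The 4 erythroid lines, among them miR-451a, summed to 2.18% to 3.05% in IL4 exosomes and 2.95% to 5.53% in control exosomes, against 0.012% to 0.021% in the lysates, and all 4 were called higher in exosomes, in IL4 and in control samples alike. The 2 endothelial miR-126a lines summed to 0.410% to 1.59% in IL4 exosomes and 0.686% to 2.75% in control exosomes, with at most 0.0034% in a lysate. In bulk lysates, fewer cells of a type and less RNA per cell cannot be told apart. For the exosome libraries, the source of the vesicles that carry these lines was not tested.

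miR-29a-3p made up most of the family in every library. It had 3658, 3872, 4678 and 6321 CPM in IL4 exosomes (replicates 1 to 4), against 4575, 5811, 6919 and 8011 CPM in control exosomes. In lysates it had 5394, 5709 and 7406 CPM with IL4, against 6356, 5574 and 7631 CPM in controls. The 4 groups overlapped. By mean CPM it was line 37 of 1250 in IL4 exosomes, line 33 in control exosomes and line 24 in both lysate groups. It was the highest of the 3 guides in 14 of 14 libraries, whereas miR-29b-3p exceeded miR-29c-3p in 9 of 14, so the order of those neighbours was not fixed.

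miR-29b-3p had 319.8, 214, 291 and 352 CPM in IL4 exosomes, against 0, 91.9, 261 and 410.1 CPM in control exosomes. The lysates had 284, 222 and 346 CPM with IL4 and 281, 244 and 295 CPM in controls. The control exosomes spread over the whole range of the other groups. miR-29c-3p had 359.8, 201, 204 and 156 CPM in IL4 exosomes, against 0, 313, 357 and 54.7 CPM in control exosomes. Its lysate values were 207, 209 and 239 CPM with IL4, against 202, 263 and 273 CPM in controls. Control exosome replicate 1 had no read of either guide among 28417 reads, and replicate 4 had 2 reads of miR-29c-3p, so those low values rest on counts of 0 to 2.

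**Figure D1:**
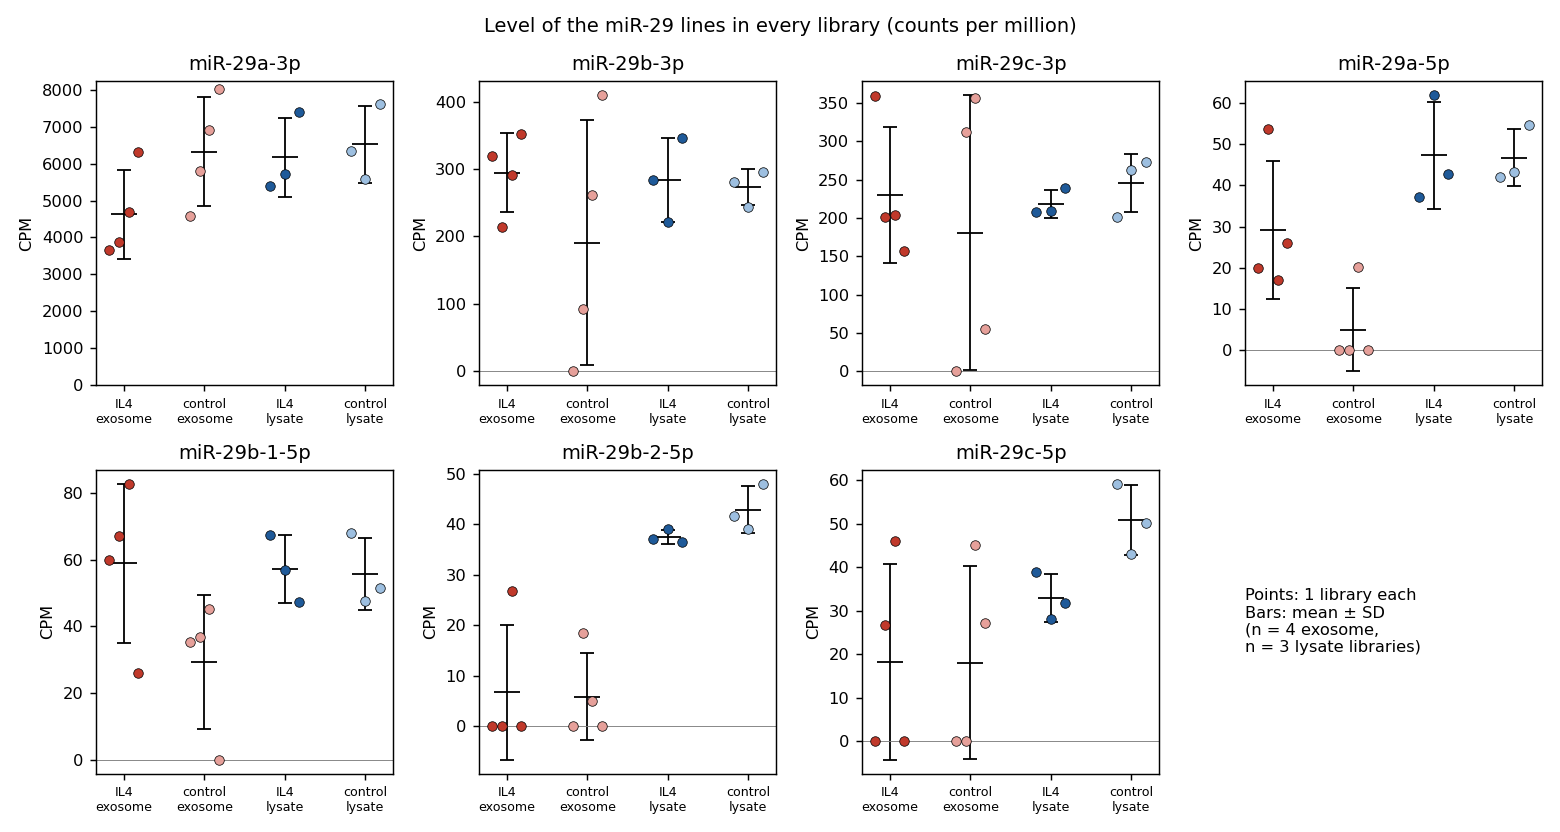
CPM (linear axis) of each of the 7 miR-29 lines in the 14 libraries, by group; points are libraries and bars show the mean and SD. miR-29a-3p averaged 4632 CPM in IL4 exosomes and 6329 CPM in control exosomes, and the 4 passengers averaged under 60 CPM in every group.

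The passengers were low everywhere, and in exosomes they were near the limit of the counts. miR-29a-5p, opposite the main guide, had 1, 4, 7 and 2 reads in IL4 exosomes, against 0, 0, 4 and 0 reads in control exosomes. The lysates had 218, 244 and 219 reads with IL4 and 242, 294 and 301 reads in controls. In CPM these were 29.2 ± 16.7 in IL4 exosomes and 5.02 ± 10.05 in control exosomes (SD, n = 4 each), and 47.3 ± 13.0 in IL4 lysates and 46.7 ± 6.91 in control lysates (SD, n = 3 each). Control exosome replicate 3, at 20.1 CPM from 4 reads, lay below every lysate. The 0 reads of control exosome replicates 1, 2 and 4 cannot place them below the lysates. With a floor of 3 counts for 0, they allow up to 105.6, 55.2 and 82.0 CPM, above the control lysates at 42.1 to 54.6 CPM. The IL4 exosomes overlapped the lysates through replicate 2.

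The miR-29b passengers come from separate hairpins and have separate lines. Their sequences are alike over most of their length. The split of reads between them, here and below, is therefore uncertain where the counting allowed mismatches, which is not stated. miR-29b-1-5p had 3, 5, 34 and 2 reads in IL4 exosomes, against 1, 2, 9 and 0 reads in control exosomes, and 395, 224 and 243 reads in IL4 lysates, against 390, 323 and 284 reads in control lysates. miR-29b-2-5p had 0, 0, 11 and 0 reads in IL4 exosomes and 0, 1, 1 and 0 reads in control exosomes, and 217, 154 and 187 reads in IL4 lysates and 239, 266 and 265 reads in control lysates. All 3 IL4 exosome libraries other than replicate 3, the deepest, had no read of miR-29b-2-5p. In CPM, miR-29b-1-5p averaged 58.9 ± 23.8 in IL4 exosomes and 29.3 ± 20.02 in control exosomes (SD, n = 4 each), and 57.2 ± 10.1 in IL4 lysates and 55.6 ± 10.7 in control lysates (SD, n = 3 each). miR-29b-2-5p averaged 6.68 ± 13.4 CPM in IL4 exosomes and 5.85 ± 8.69 CPM in control exosomes (SD, n = 4 each), and 37.5 ± 1.39 CPM in IL4 lysates and 42.9 ± 4.61 CPM in control lysates (SD, n = 3 each). miR-29c-5p had 0, 2, 19 and 0 reads in IL4 exosomes, against 0, 0, 9 and 1 in control exosomes, and 228, 111 and 164 reads in IL4 lysates, against 341, 293 and 277 in control lysates.

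Among the reads of the miR-29b passengers, the share from Mir29b-1 was set against that from Mir29b-2, a comparison chosen after the values were seen and given with no test. Pooled over libraries, 44 of 55 reads were miR-29b-1-5p in IL4 exosomes (80.0%, exact 95% interval 67.0% to 89.6%) and 12 of 14 in control exosomes (85.7%, 57.2% to 98.2%). In the lysates the shares were 60.7% (58.1% to 63.3%) with IL4 and 56.4% (54.1% to 58.8%) in controls. The 7 exosome libraries with any such read had shares of 66.7% to 100%, against 51.7% to 64.5% in the 6 lysates. Those other than replicate 3 had only 1 to 5 such reads each. Replicate 3 had 45 reads in IL4 exosomes (75.6%, 60.5% to 87.1%) and 10 in control exosomes (90.0%, 55.5% to 99.7%). The intervals of all 7 libraries reached into the lysate range, so single libraries do not separate the compartments. These intervals cover counting error only, since PCR reads are not independent molecules.

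In controls, the main guide was lower in exosomes than in the cells when each library was scaled by TMM. Differences are log2 fold changes with their standard errors and Benjamini-Hochberg adjusted p-values from edgeR's quasi-likelihood test, called at 0.05. miR-29a-3p was lower in control exosomes than in control lysates by a log2 fold change of -0.84 (SE 0.30, edgeR adjusted p = 0.0283). Across all lines, 172 of 338 were called in either direction, 50.9%, with 99 called higher, 29.3%, and 73 called lower, 21.6%. The minor guides were not called, with miR-29b-3p at -1.26 (SE 0.59, edgeR adjusted p = 0.0870) and miR-29c-3p at -1.13 (SE 0.61, edgeR adjusted p = 0.127). The passengers had most of their reads in lysates and 2 to 12 reads each over the 4 control exosome libraries. They did not pass the filter on low counts among the exosome libraries alone, and entered this fit through their lysate reads. A line kept in that way can be lower in exosomes through that choice, and the part of the choice in these values was not tested. With so few reads, the fitted values of the passengers in controls are a description. They were -2.97 for miR-29a-5p (SE 0.77), -1.52 for miR-29b-1-5p (SE 0.52), -3.58 for miR-29b-2-5p (SE 0.97) and -1.81 for miR-29c-5p (SE 0.80). Their edgeR adjusted p-values were 0.00474, 0.0233, 0.00631 and 0.0703. Here and below, passenger calls between exosomes and lysates are given as output of the fit, and no conclusion is drawn from them.

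In IL4 samples miR-29a-3p was lower in exosomes than in lysates by a log2 fold change of -1.13 (SE 0.30, edgeR adjusted p = 0.00605), beside 166 of 338 lines called in either direction, 49.1%, with 30.2% called higher and 64 called lower, 18.9%. miR-29b-3p and miR-29c-3p were at -0.65 and -0.64, not called. The passengers again had most of their reads in lysates, and their fitted values are again a description. miR-29b-2-5p was at -2.29 (SE 0.74, edgeR adjusted p = 0.0176) and miR-29a-5p at -1.56 (SE 0.63, edgeR adjusted p = 0.0517). miR-29b-1-5p was at -0.59 and miR-29c-5p at -1.14. The erythroid and endothelial lines given above were higher in the same exosome libraries, and their part in the miR-29 values was not tested.

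The size of these differences depended on the scaling. The median log2 difference of all 338 lines between exosomes and lysates was -0.01 with TMM, 0.29 with DESeq2-type size factors and 0.68 with library size in IL4 samples, and -0.18, 0.22 and 0.63 in controls. miR-29a-3p moved with it, to -1.13, -0.83 and -0.41 in IL4 samples and -0.84, -0.43 and -0.04 in controls. A change of scaling shifts all lines about alike, so its distance from that median is nearly fixed: -1.12, -1.12 and -1.09 in IL4 samples and -0.66, -0.65 and -0.67 in controls. The lines called lower moved too, to 64 (beside 30.2% of lines higher), 50 (beside 111 higher) and 12 (beside 127 higher) in IL4 samples, and to 73 (beside 99 higher), 47 (beside 109 higher) and 16 (beside 126 higher) in controls. The IL4 call of miR-29a-3p held with DESeq2-type size factors (edgeR adjusted p = 0.0174) and ended with library size (0.223), and its control call ended with both (0.197 and 0.936). For the passengers the calls are a description, as above. miR-29b-2-5p was called with DESeq2-type size factors (0.0363) and not with library size (-1.53, adjusted p = 0.121) in IL4 samples, and with both in controls (0.0144 and 0.0434). In controls miR-29b-1-5p was called with neither (0.0854 and 0.372) and miR-29a-5p with both (0.00988 and 0.0393). By library size alone, miR-29b-3p, miR-29c-3p and miR-29b-1-5p had the opposite sign in IL4 samples, at 0.05, 0.05 and 0.11.

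Some calls also rested on single libraries, and those of the passengers are a description, as above. In IL4 samples the call of miR-29a-3p ended without IL4 lysate replicate 3 (log2 fold change -0.75, edgeR adjusted p = 0.0664), and that of miR-29b-2-5p without IL4 exosome replicate 2 (-1.83, edgeR adjusted p = 0.0541) or replicate 4 (-1.77, edgeR adjusted p = 0.0550). In controls the call of miR-29a-3p was lost in 9 of 14 alternatives, with edgeR adjusted p up to 0.936. Among these were leaving out control exosome replicate 1 (-0.45), 2 (-0.75) or 3 (-0.60) and control lysate replicate 2 (-0.87) or 3 (-0.64). The control call of miR-29b-1-5p was lost in 10 of 12, among them leaving out any of the 7 control libraries (-1.68 to -1.22). That of miR-29b-2-5p ended without control exosome replicate 3 (-2.92, edgeR adjusted p = 0.0645). Without control exosome replicate 3 the control exosomes held no read of miR-29a-5p.

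**Figure D2:**
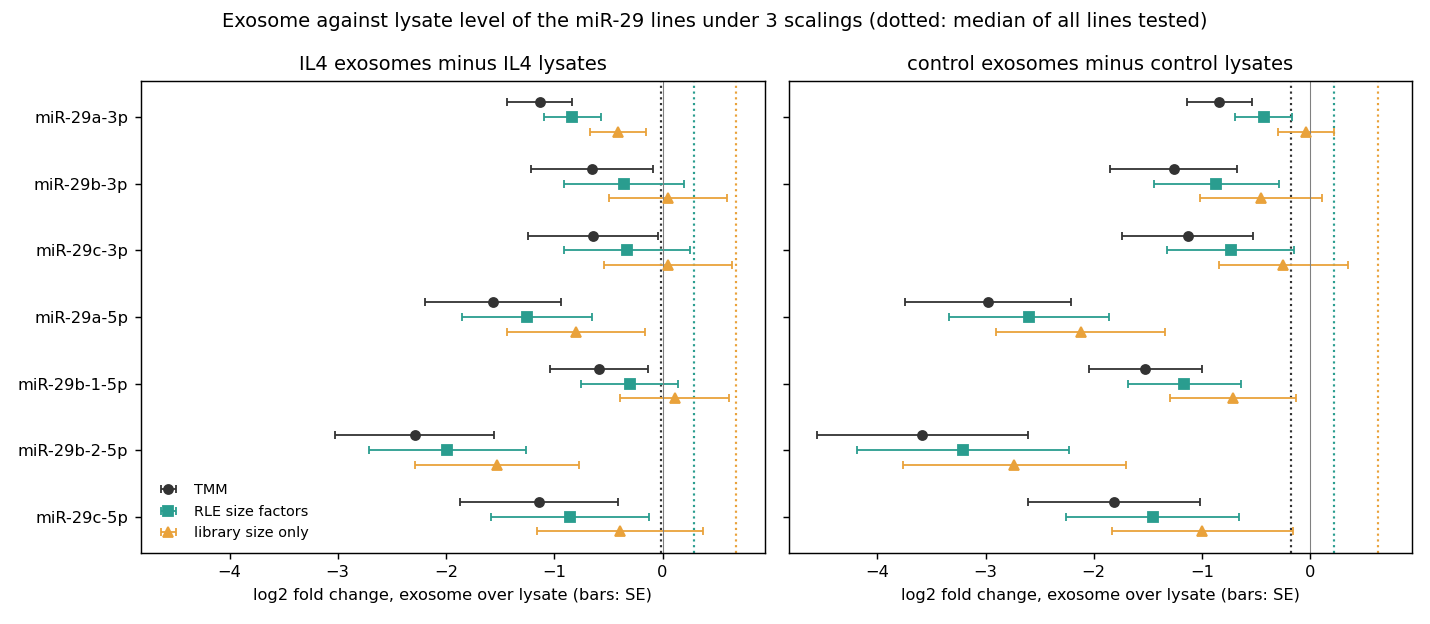
Log2 fold change between exosomes and lysates (x axis) of each miR-29 line with 3 scalings, for IL4 samples and control samples; bars show the SE and dotted lines the median of all 338 lines tested with each scaling. miR-29a-3p moved between -1.13 and -0.41 in IL4 samples and between -0.84 and -0.04 in controls.

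The share of passenger reads among all miR-29 reads needs no scaling, since both are counted in the same library. It was 1.81%, 3.32%, 3.23% and 0.758% in IL4 exosomes, against 0.763%, 0.880%, 1.51% and 0.322% in control exosomes. In lysates it was 2.98%, 2.94% and 1.94% with IL4, against 2.99%, 2.77% and 2.43% in controls. Every control exosome library was below every control lysate (0.869% ± 0.491, n = 4, against 2.73% ± 0.280, n = 3, SD), whereas IL4 exosomes and IL4 lysates overlapped (2.28% ± 1.23, n = 4, against 2.62% ± 0.588, n = 3, SD). Control exosome replicates 1, 2 and 4 held only 1, 3 and 1 passenger reads. The exact 95% intervals of control exosome replicates 1 and 2 reach 4.18% and 2.55%, into the range of the control lysates. Those of replicates 3 and 4 reach 2.26% and 1.78%. The IL4 library had the higher share than the control library of its date at 4 of 4 exosome dates and at 1 of 3 lysate dates. Replicate 3, the deepest, held 71 of the 90 passenger reads in IL4 exosomes and 23 of the 28 in control exosomes. No p is given for these sums over the members.

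**Figure D3:**
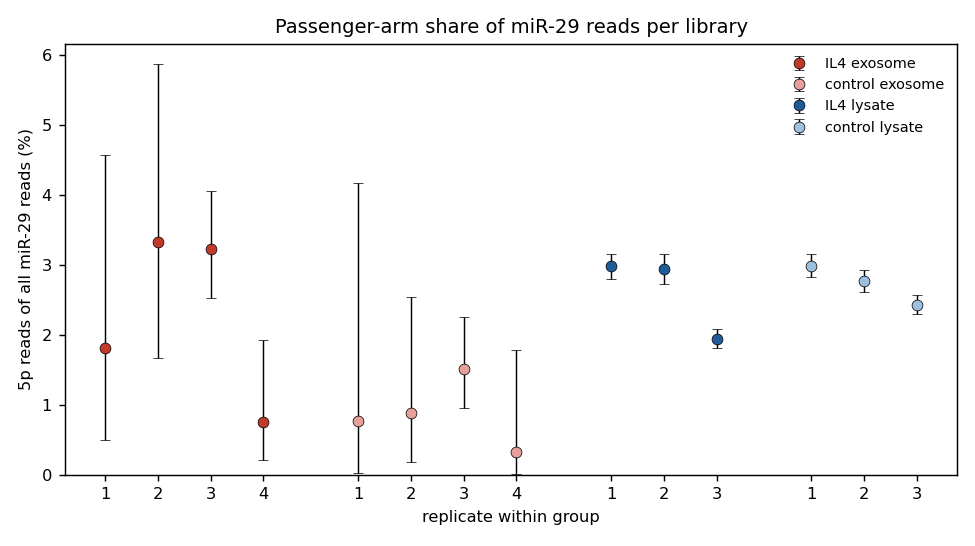
Passenger (5p) reads as a share of all miR-29 reads in each library, in percent, with exact 95% binomial intervals that cover counting error only. The 4 control exosome libraries lie at 0.322% to 1.51%, below the 6 lysates at 1.94% to 2.99%, and the 4 IL4 exosome libraries spread over 0.758% to 3.32%. The intervals of control exosome replicates 1, 2 and 3 reach 4.18%, 2.55% and 2.26%, into or past the lysate range, and that of replicate 4 reaches 1.78%.

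By hairpin, the 5p arm of miR-29a in control exosomes took 0%, 0%, 0.290% and 0% of the hairpin's reads, against 0.658%, 0.771% and 0.711% in control lysates. By the floor of 3 counts, the 0% of control exosome replicates 1, 2 and 4 allows up to 2.31%, 0.949% and 1.02%, above the control lysates. In IL4 exosomes the 5p arm of miR-29a took 0.543%, 1.37%, 0.362% and 0.411%, against 0.686%, 1.07% and 0.572% in IL4 lysates. Pooled, control exosomes had 4 reads on the 5p arm beside 2116 on the 3p arm (0.189%, exact 95% interval 0.051% to 0.482%), against 0.714% (0.666% to 0.763%) in control lysates. Without replicate 3 it was 0 of 739 reads, where the floor of 3 counts gives 0.406%. These pooled values cover counting error only. They leave out the spread between libraries and cannot by themselves separate the groups. The miR-29b hairpins, with their 5p arms summed, had pooled 5p shares of 23.5% in IL4 exosomes and 16.3% in control exosomes, and 24.8% in IL4 lysates and 26.5% in control lysates. The library values were 15.8%, 23.8%, 27.3% and 6.90% in IL4 exosomes, against 100%, 37.5%, 16.1% and 0% in control exosomes, where replicate 1 had a single read, so the library means ran in the other order (18.4% in IL4 and 38.4% in control exosomes). Without replicate 3 the pooled shares were 14.5% in IL4 exosomes and 16.7% in control exosomes. For miR-29c it was 14.0% in IL4 exosomes, with 21 5p and 129 3p reads, against 10 5p and 90 3p reads in control exosomes. Without replicate 3 it was 4.26% in IL4 exosomes and 5.0% in control exosomes, and the library means again ran in the other order, at 7.55% in IL4 exosomes and 14.9% in the 3 control exosome libraries with a read. The miR-29c share was 13.4% in IL4 lysates and 17.01% in control lysates.

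The balance of the arms was also tested for 140 hairpins with enough reads on both, as the log2 ratio of the minor to the major arm with library terms that take out depth. For miR-29a it was lower in control exosomes than in control lysates by 2.06 (log2 difference -2.06, SE 0.75), which missed the threshold (edgeR adjusted p = 0.105, unadjusted p = 0.0113) and was the 21st lowest of 140. All 4 of its 5p reads in control exosomes were in replicate 3, without which the fitted value was -9.85 (edgeR adjusted p = 0.0806) and rested on no read. Over the other alternatives it ran from -2.11 to -1.80. For miR-29b and miR-29c the differences were -0.84 and -0.96, with edgeR adjusted p of 0.501 and 0.500. Of the 140 hairpins 10 were called, 7.14%, with the minor arm higher in exosomes in 7 and lower in 3, 2.14%, and the median difference was 0.06. In IL4 samples the differences were -0.47, -0.40 and -0.17 for miR-29a, miR-29b and miR-29c, none called, beside 12 of 140 hairpins, 8.57% (6.43% with the minor arm higher), and a median of 0.12. With the miR-29b genes kept apart, the difference in controls was -0.26 for miR-29b-1 and -2.44 for miR-29b-2 (SE 1.04, edgeR adjusted p = 0.161), and in IL4 samples 0.13 and -1.37 (edgeR adjusted p = 0.249 for miR-29b-2).

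**Figure D4:**
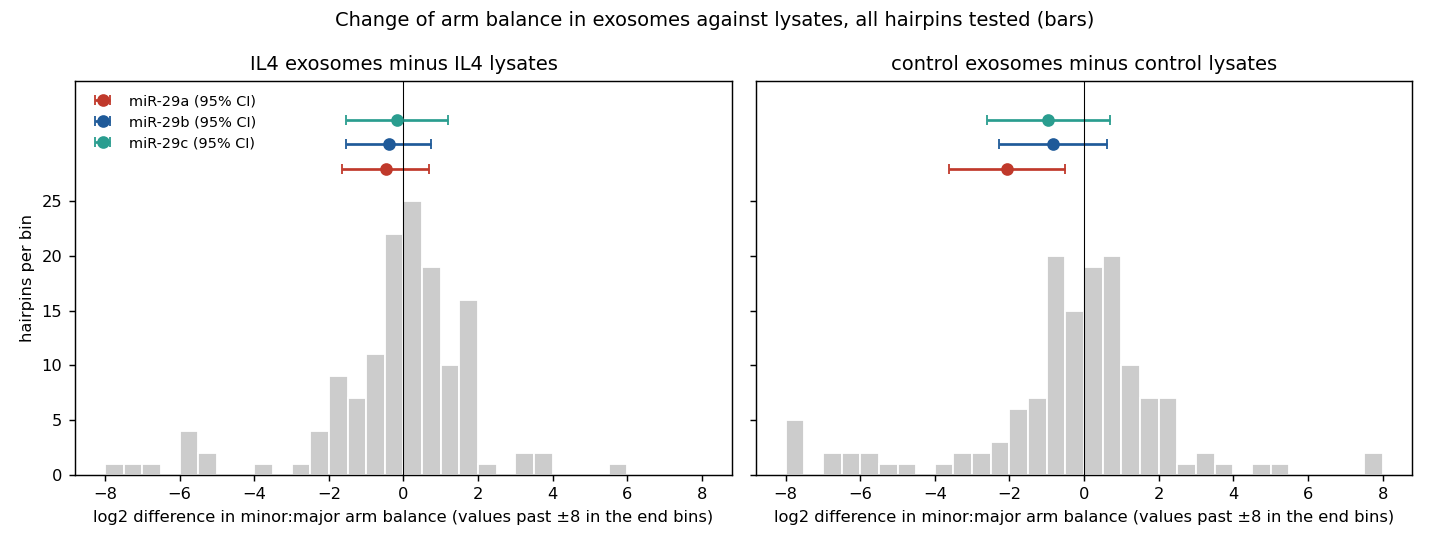
Log2 difference in arm balance (minor to major arm, exosomes minus lysates) of 140 hairpins as a histogram, for IL4 samples and control samples, with the miR-29 hairpins as points with 95% confidence intervals drawn above it. The miR-29a point lies at -0.47 in IL4 samples and at -2.06 in controls, where the median of all hairpins was 0.06.

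Among guides alone, miR-29b took more of the reads in IL4 exosomes. Its share was 7.37%, 5.0%, 5.63% and 5.15% in IL4 exosomes, against 0%, 1.48%, 3.47% and 4.84% in control exosomes, and the groups did not overlap (5.79% ± 1.09 against 2.45% ± 2.14, SD, n = 4 each). The difference was positive at 4 of 4 dates. An exact two-sided permutation test gave p = 0.0286, the smallest this design allows (n = 4 each), and 0.357 after Benjamini-Hochberg adjustment over the 25 single-value tests. Permuted within dates, the exact p was 0.125, also the smallest possible, and leaving out any of the 4 IL4 exosome libraries ended the unadjusted call. The lysate shares were 4.83%, 3.62% and 4.33% with IL4, against 4.11%, 4.01% and 3.60% in controls, all below the IL4 exosomes and inside the range of the control exosomes. Control exosome replicate 1 had no miR-29b-3p among 130 guide reads, which by the floor of 3 counts allows a share of up to 2.31%, while the exact two-sided 95% interval in the plot of guide shares reaches 2.80%. None of the 25 single-value tests passed after adjustment.

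miR-29a-3p took 84.3%, 90.3%, 90.4% and 92.6% of the guide reads in IL4 exosomes, against 100%, 93.5%, 91.8% and 94.5% in control exosomes, and 91.7% to 93.1% in the lysates. miR-29c-3p took 8.29%, 4.69%, 3.94% and 2.29% in IL4 exosomes, against 0%, 5.03%, 4.73% and 0.645% in control exosomes, and 2.95% to 4.32% in the lysates. Both exosome groups overlapped for miR-29c.

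**Figure D5:**
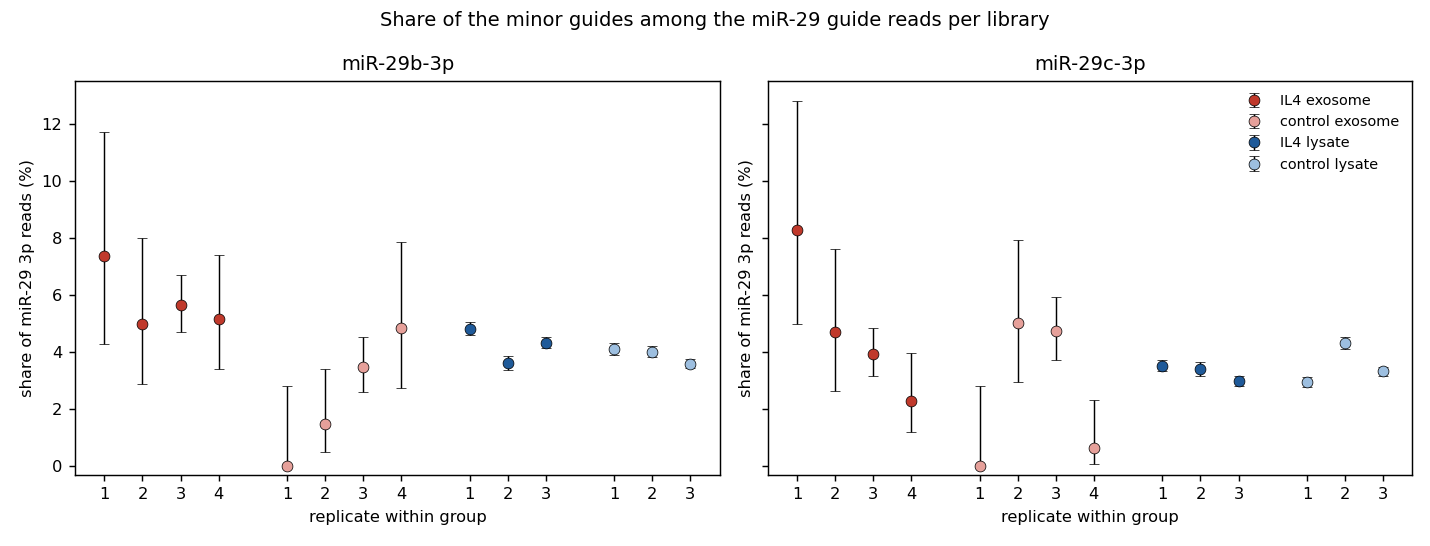
Share of miR-29b-3p and of miR-29c-3p among the reads of the 3 guides in each library, in percent, with exact 95% binomial intervals that cover counting error only. The miR-29b share lies at 5.0% to 7.37% in IL4 exosomes and at 0% to 4.84% in control exosomes.

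IL4 was not associated with a called change of any member in either compartment. In exosomes the 3 guides were tested and 0 called, beside 1 of 182 lines, 0.549%. The log2 fold changes of IL4 exosomes over control exosomes were -0.30 for miR-29a-3p (95% interval -0.90 to 0.29), 0.72 for miR-29b-3p (-0.87 to 2.31) and 0.39 for miR-29c-3p (-1.24 to 2.02), with edgeR adjusted p of 0.862, 0.862 and 0.888. The intervals of the minor guides reach past a log2 unit. By library totals, without TMM, miR-29a-3p had fewer CPM in the IL4 library at 4 of 4 exosome dates. With library size the median log2 fold change of all lines was itself -0.25. The 4 passengers had too few reads to be tested.

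In lysates all 7 were tested and 0 called, beside 32 of 443 lines, 7.22% (5.87% higher, 1.35% lower). The log2 fold changes of IL4 lysates over control lysates were 0.14, 0.28 and 0.03 for miR-29a-3p, miR-29b-3p and miR-29c-3p, and 0.22, 0.24 and 0.00 for miR-29a-5p, miR-29b-1-5p and miR-29b-2-5p. miR-29c-5p was at -0.42 (SE 0.21, 95% interval -0.89 to 0.06, edgeR adjusted p = 0.439, unadjusted p = 0.0764). No member passed an unadjusted p of 0.05 in edgeR's test in either compartment. The arm balance of miR-29a, miR-29b and miR-29c differed between IL4 and control by 1.67, 0.35 and 0.32 in exosomes, where 1 hairpin of 140, 0.714%, was called, and by 0.08, -0.09 and -0.46 in lysates, where 0 were called and 3 had an unadjusted p under 0.05. The miR-29a value in exosomes had SE 0.86 and edgeR adjusted p = 0.514. The difference of the IL4 effects between compartments was called for 0 of 338 lines by edgeR and 0 by DESeq2, with 14 lines at an unadjusted p under 0.05 in edgeR's test and no member among them.

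The 5 lines whose pattern was nearest to that of miR-29a-3p, by the mean absolute difference of centred log2 CPM over the 14 libraries, were miR-652-3p (0.17), miR-26b-5p (0.18), miR-30d-5p (0.20), miR-16-5p (0.24) and let-7g-5p (0.25). The median over lines was 1.09. The other members lay farther off, from 0.92 for miR-29b-1-5p to 2.10 for miR-29b-2-5p. They had far fewer exosome reads than miR-29a-3p, and the part of low counts in these distances was not tested.

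Other miRNAs reported to share targets or control with miR-29 were described as lists, to be read beside all lines, of which 30.2% were called higher and 18.9% lower in IL4 samples and 29.3% higher and 21.6% lower in controls. Of 8 tested miRNAs reported to act on DNA methylation enzymes, 1 was called higher and 2 lower in IL4 exosomes than in IL4 lysates, with a median log2 fold change of -0.60, and 1 higher and 2 lower in the control pair, with a median of -0.62. Among them miR-26b-5p was lower by -0.89 in IL4 samples (edgeR adjusted p = 0.00588) and -1.11 in controls (edgeR adjusted p = 0.00115), while miR-148a-3p was at -0.48 and -0.56 and not called. Of 17 tested miRNAs reported as repressed by Myc, 1 was called higher and 6 lower in IL4 samples, with a median of -0.58, and 1 higher and 9 lower in controls, with a median of -0.78. let-7f-5p was lower by -1.06 in IL4 samples (edgeR adjusted p = 0.0109) and by -1.79 in controls (edgeR adjusted p = 0.000327). Of 8 tested miRNAs reported in collagen production and fibrosis, 2 were called higher and 2 lower in IL4 samples, with a median of -0.57, and 1 higher and 3 lower in controls, with a median of -0.62. The fibrosis-linked miR-21a-5p was lower by -1.38 in IL4 samples (edgeR adjusted p = 0.000551) and by -1.26 in controls (edgeR adjusted p = 0.000737). The median of all lines was -0.01 in IL4 samples and -0.18 in controls. Between IL4 and control, 0 miRNAs of these lists were called in exosomes, where 8, 16 and 5 of them were tested, and in lysates 1 of 18 of the Myc list was called lower and 0 of 8 of each other list in either direction.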

How the data were processed

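Small RNA was sequenced from 8 exosome and 6 lysate samples. Per the labels' protocols, exosomes were purified from culture supernatant on an OptiPrep gradient and libraries made with a NextFlex kit. Cutadapt and the mouse build mm10 were used, per the submitters' processing notes. The aligner, the counting program and its handling of strand and mismatches were not given in the sources used here. Deposited values are raw counts per mature miRNA, with 0 columns left unused. Genes overlapping the hairpins are from the GENCODE vM21 annotation.

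Replicates were numbered by the titles' dates: 25 January, 16 March and 5 April 2018 and 29 December 2017 for exosomes 1 to 4, and 23 January, 14 March and 21 March 2018 for lysates 1 to 3. Libraries of the same date deviated together (correlations of 0.459, 0.185, 0.724 and 0.267 in exosomes and 0.611, 0.256 and 0.282 in lysates), so dates pair IL4 with control. Any 2 libraries of a group differed by more than sampling noise (chi-square of 21.0 or more per degree of freedom).

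edgeR 4.0.16 in R 4.3.3 (filterByExpr, TMM, quasi-likelihood, two-sided, Benjamini-Hochberg over all lines tested, threshold 0.05) was used. IL4 was compared with control in separate exosome and lysate fits; exosomes were compared with lysates, and the IL4 effects with each other, in 1 fit of 14 libraries. Arm balance was fitted for hairpins with 50 or more counts on each arm, summed over the 14 libraries, with library and arm-by-group terms. CPM are counts over the library total. Shares have exact (Clopper-Pearson) 95% intervals and a floor of 3 counts for 0. The line fits, and the arm-balance fit of control exosomes against control lysates, were also run on simulated data. The simulated data had a fixed spread and, apart from set changes, the same proportions or arm split in all libraries. The real data differ in this, so no conclusion is drawn from them for lines with few exosome reads. Alternatives were other scalings, other filters, DESeq2 1.42.0, a replicate block, other sets of libraries and leaving out each library.

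The 7 members and the lists were chosen with earlier results of these data known. Named genes were the members, the 5 nearest lines to miR-29a-3p and up to 3 of the highest miRNAs of each list. Of the lists of markers of other cell types, the lines called higher and lower in exosomes than in lysates were 4 and 0 of 4 erythroid, 2 and 0 of 2 endothelial, 5 and 0 of 6 stromal, 1 and 0 of 1 lymphocyte, 2 and 0 of 5 epithelial, 2 and 0 of 3 muscle and 1 and 0 of 1 liver lines in IL4 samples; 4 and 1 of 6 stromal and 3 and 0 of 3 muscle lines in controls, where the other counts were equal. Of all lines, 30.2% were called higher and 18.9% lower in IL4 samples and 29.3% and 21.6% in controls. Of 9 myeloid lines, 4 were called lower in IL4 samples, 5 in controls and 0 higher in either. The marker lines at 0 in a whole group were miR-199b-5p in control lysates, miR-206-3p in control exosomes and control lysates, and miR-205-5p in both lysate groups.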

Additional observations from a re-analysis of the deposited data

Results flagged for a closer look

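In 3 of 29 sets of 4 exosome values, 1 library stood apart from the rest of its group by Dixon's criterion, which chance meets in about 1 set in 20 for values without ties. Each of these sets is 1 value above 0 beside 3 values of 0, which meets the criterion whatever the value, so that rate does not apply to them, and the last 2 are the same 4 reads of miR-29a-5p. miR-29b-2-5p had 26.7 CPM in IL4 exosome replicate 3 and 0 in the other IL4 exosome libraries. miR-29a-5p had 20.1 CPM in control exosome replicate 3 and 0 in the other control exosome libraries. The 5p share of miR-29a reads was 0.290% in that library and 0% in the others. Replicate 3 was the deepest library of both exosome groups, with 411671 reads in IL4 and 199025 reads in control exosomes, and the part of depth in these values was not tested.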

How the results depend on the processing

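The exosome passengers had 0 to 34 reads a library, which limits their precision. With TMM-scaled totals, the family sum differed by -4339 CPM between control exosomes and control lysates, -5239 between IL4 exosomes and IL4 lysates and -4789 between exosome and lysate dates, with groups that did not overlap, whereas they did by library totals, and by 490.3 between IL4 and control lysates, with the sign turned. From pooled counts, the miR-29a guide share differed by -1.09 percentage points between exosome and lysate dates.

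Counts of miRNAs called between IL4 and control exosomes were 0 by library size, 12 without a filter, 6 with DESeq2 and 0 to 2 without each replicate, against 1. Between IL4 and control lysates they were 14 by library size, 50 with a replicate block, 4 in a fit of all 14 libraries and 2 to 34 without each replicate, against 32. The compartment difference of IL4 effects had 3 calls without a filter. Hairpins called for arm balance numbered 0 (10 or more counts), 2 (genes apart), 2 (replicate block) and 0 to 1 (without each replicate) between IL4 and control exosomes, 16 (10 or more counts) between control exosomes and lysates, and 5 to 12 without each replicate between IL4 exosomes and lysates. The replicate block gave 3.34 points for the miR-29b share of guides between IL4 and control exosomes (exact p = 0.125) and changed no member's call. No paired analysis was possible between exosomes and lysates because they share no date.

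Leaving out each replicate moved the passenger share difference over -2.08 to -1.68 points (control exosomes minus lysates), -0.690 to 0.166 (IL4 exosomes minus lysates), 1.06 to 1.92 (IL4 minus control exosomes) and -0.290 to 0.229 (IL4 minus control lysates). The family sum moved over -1057 to 240.3 CPM (control exosomes minus lysates) and -1039 to 195.6 (IL4 minus control lysates). Guide shares moved over 2.53 to 4.14 points (miR-29b, IL4 minus control exosomes), -0.569 to 0.269 (miR-29a) and -0.517 to 0.167 (miR-29c, both IL4 minus control lysates), and, over dates, -2.28 to 1.63 (miR-29a), -0.884 to 0.960 (miR-29b) and -0.751 to 1.32 (miR-29c).

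For IL4 minus control lysates, none of them called, other signs were seen for miR-29a-3p (-0.080 by library size, -0.17 to 0.31 without each replicate), miR-29b-3p (-0.065 to 0.43), miR-29a-5p (-0.014 to 0.43), miR-29c-3p (-0.0010 with RLE, -0.17 by library size, -0.0012 with DESeq2, -0.056 in the fit of 14, -0.19 to 0.14) and miR-29b-2-5p (-0.023 with RLE, -0.19 by library size, -0.020 without a filter, -0.025 with DESeq2, -0.073 in the fit of 14, -0.11 to 0.10). Without each replicate, miR-29a-3p ran over -0.33 to 0.025 for IL4 minus control exosomes and -0.55 to 0.048 for the difference of IL4 effects. By library size, IL4 exosomes minus lysates gave 0.050, 0.049 and 0.11 for miR-29b-3p, miR-29c-3p and miR-29b-1-5p. Arm balance without each replicate ran over -0.22 to 0.71 (miR-29b) and -1.27 to 1.29 (miR-29c) for IL4 minus control exosomes, -0.18 to 0.27 (miR-29a) and -0.27 to 0.15 (miR-29b) for IL4 minus control lysates, and -1.76 to 0.14 (miR-29c) for IL4 exosomes minus lysates. The causes were not tested.

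In IL4 samples the exosome-lysate call of miR-29a-3p was lost in 2 of 14 alternatives and that of miR-29b-2-5p in 3 of 9; in controls that of miR-29b-2-5p was lost in 1 of 9. With miR-29a-3p and miR-29c-3p summed, the log2 difference was -1.14 in IL4 samples and -0.85 in controls.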
